A study of Mus musculus with 7 samples.

Results

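The genes of integrins and other adhesion molecules followed here, in splenic memory B cells (MBCs) and plasma cells (PCs), were Itga4, Itgb1, Itgb7, Itgal, Itgb2, Itga6, Cd44, Icam1 and Pecam1. They are given by name, and all 9 of 9 were found among the 48795 genes of the deposited table of length-normalized transcript abundance (TPM, summing to 1000000 per library). Both groups came from spleens of wild type C57BL/6 mice, all female and 8 to 12 weeks old, taken on day 10 after an intravenous injection of sheep red blood cells. The 3 MBC libraries were sorted as B220+ cells that lacked CD138 and IgD and carried CD38 and CD273, and the 4 PC libraries as B220 low, CD138+ cells without IgD. Both groups passed through the same CD43 bead step before sorting. No untreated group was compared, so every value below sets one immunized cell type against the other.

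An integrin is a pair of 1 alpha and 1 beta chain, and the partner decides the ligand. The alpha4 chain with beta1 forms VLA-4, which binds VCAM-1, whereas alpha4 with beta7 binds MAdCAM-1 on vessels of the gut. The alphaL and beta2 chains form LFA-1, which binds ICAM-1, and alpha6 with beta1 binds laminin. CD44 binds hyaluronan in the matrix, and PECAM-1 binds itself across cell contacts and carries inhibitory motifs in its tail. In lymphoid tissue these molecules are known for holding PCs in their niches and for letting B cells cross vessel walls.

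For 5 of the 9 genes, the reference tables of RefSeq held a promoter window, which spans 250 bases before and 50 bases after the annotated start. Those of Itga4 and Itgb7 are shown because the 2 chains pair with each other while their transcripts stood at opposite ends of the integrin levels in PCs. Capitals mark the motifs searched. In the Itga4 window (GRCm38.p6, chr2:79255176-79255475, plus strand) these were a GC box, GGGCGG, beginning 114 bases before the start, and a RUNX core, TGTGGT on the opposite strand, 60 bases before it. In the Itgb7 window (GRCm38.p6, chr15:102231886-102232185, minus strand) both runs in capitals were an ETS core, AGGAAG on the opposite strand, 141 bases before the start and 1 base after it.
Itga4 promoter: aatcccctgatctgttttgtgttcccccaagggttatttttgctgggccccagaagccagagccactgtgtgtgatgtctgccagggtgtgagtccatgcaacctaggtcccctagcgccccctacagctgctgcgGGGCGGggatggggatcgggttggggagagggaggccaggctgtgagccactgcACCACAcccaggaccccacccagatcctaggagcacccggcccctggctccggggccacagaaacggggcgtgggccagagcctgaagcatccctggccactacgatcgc
Itgb7 promoter: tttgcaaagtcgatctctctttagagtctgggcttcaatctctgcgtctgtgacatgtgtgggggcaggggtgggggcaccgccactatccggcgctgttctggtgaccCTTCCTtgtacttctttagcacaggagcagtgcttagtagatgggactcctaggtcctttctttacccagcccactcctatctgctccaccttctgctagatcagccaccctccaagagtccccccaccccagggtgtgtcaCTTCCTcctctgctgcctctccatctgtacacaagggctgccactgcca

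The Itga4 window held 64.3% G and C and the Itgb7 window 56.3%, beside a median of 52.7% over all 32851 promoters of the table. The 5 motifs were searched on both strands, and their letters do not overlap one another. A GC box occurred in 35.7% of all promoters, a RUNX core in 16.8% and an ETS core in 35.4%. The remaining motifs, an E-box (CAGGTG) and a TATA box (TATAAA), occurred in 20.2% and 13.6% of promoters and in neither printed window. These matches describe the letters only.

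Levels are given as scaled TPM, that is, the deposited TPM divided by a factor per library (the median ratio over 9305 genes above 0 in every library). This scaling was needed because immunoglobulin genes took 49.4% to 55.9% of the TPM in PCs and 1.65% to 3.16% in MBCs. Fold changes are log2 differences, PC minus MBC, of scaled TPM + 1, which understates the change of low genes. Of the 11573 genes tested by limma, a gene was called where the Benjamini-Hochberg adjusted p was under 0.05 and the fold change was at least 1 on the log2 scale. By this rule 742 genes (6.41%) were called higher in PCs and 248 (2.14%) lower. The labels do not say whether libraries of a group came from separate mice, so the p-values measure the spread between these libraries. Bulk RNA cannot tell fewer expressing cells from less RNA per cell.

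One library stood apart from its label, and results that rest on it are given with and without it. In the library labelled MBC replicate 3, Cd38, a gene of the MBC sort, was at 6.77 against 130.3 and 185.7 in MBC replicates 1 and 2. Pdcd1lg2, which encodes CD273, was at 2.59 there against 43.3 and 24.4. The summed level of 7 germinal center B cell markers was 663.7 in that library, 244.0 and 270.1 in the other MBC libraries, and 70.3 to 139.5 in PCs. Summed PC markers (6 genes) reached 148.8 to 293.5 in MBC libraries and 9613 to 16540 in PC libraries. Summed MBC markers (7 genes) reached 925.0 to 2567 and 385.9 to 430.7, respectively. MBC replicate 3 held the lowest MBC level for 5 of the 9 adhesion genes and the lowest of all 7 libraries for 4 of them (Itga4, Itgb7, Itgal and Cd44). The part of these markers in the results below was not tested. Over all genes tested, MBC replicates 1 and 2 correlated at r = 0.675 with each other, and at 0.687 and 0.681 with replicate 3. The MBC libraries that remain without replicate 3 were thus no more alike. Replicate 3 itself correlated at 0.7 to 0.777 with the PC libraries. Without MBC replicate 3, 1592 genes (13.8%) were called higher in PCs and 919 (7.94%) lower.

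All 9 adhesion genes were at or above 1 TPM in all 7 libraries and were tested. Pecam1 was the only one called in the comparison of all libraries, lower in PCs, beside 2.14% of all genes tested. Itgb7 joined it when MBC replicate 3 was left out, beside 7.94% of all genes called lower there. By limma, 0 of the 9 were called higher in PCs, beside 6.41% of all genes. At an unadjusted p under 0.05 there were 1 higher (Cd44) and 1 lower (Pecam1), beside 15.3% and 8.93% of all genes tested at that threshold. Without MBC replicate 3, limma again called 0 higher, beside 13.8% of all genes. At an unadjusted p under 0.05 there were then 0 higher and 2 lower, beside 4189 of all 11573 genes in either direction. The median fold change of the 9 genes was -0.11 on the log2 scale, beside 0.14 over all genes tested, and 0.02 beside 0.19 without MBC replicate 3. The groups did not overlap for 2 of the 9 genes (22.2%), Cd44 and Pecam1, and for 2510 of all genes tested (21.7%), so this share was close to the background.

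**Figure D1:**
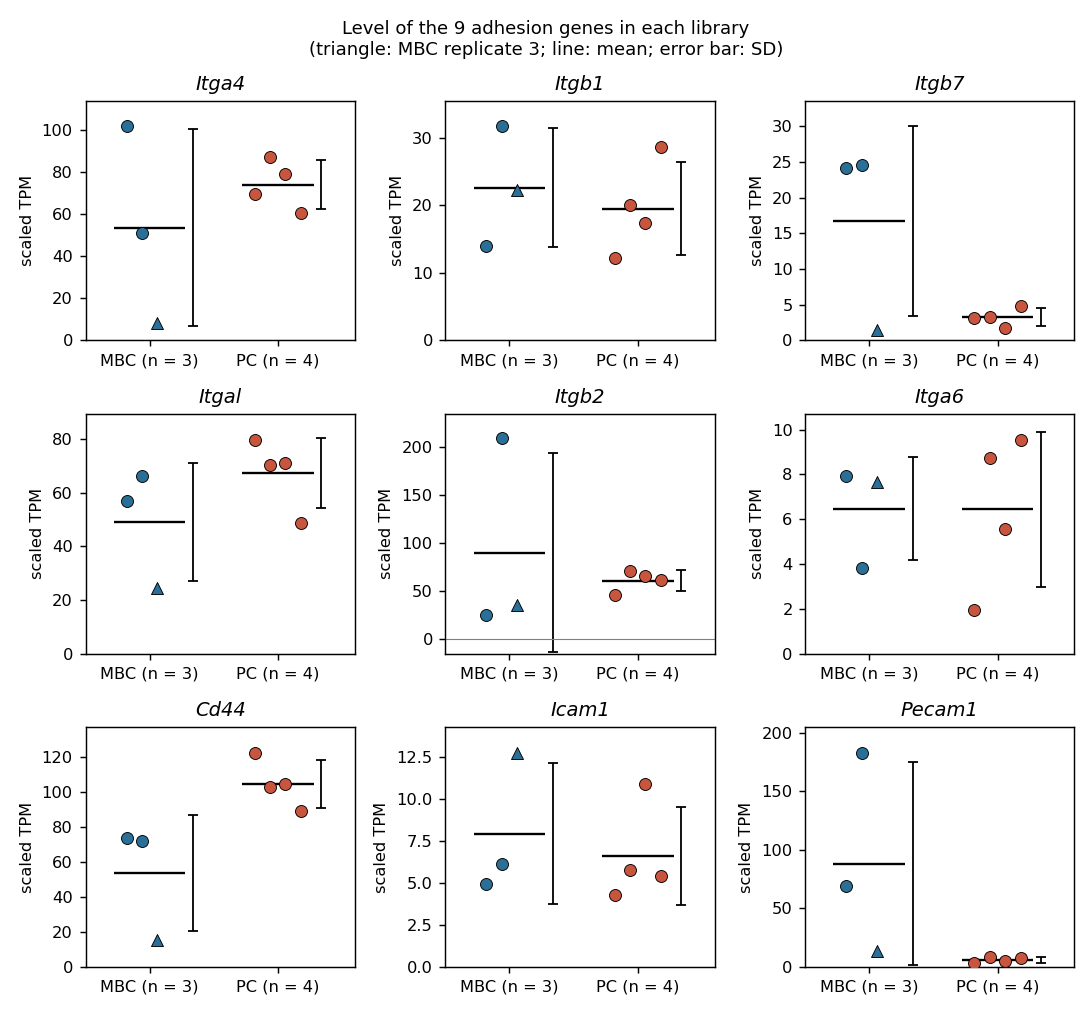
Scaled TPM (linear axis, 1 panel per gene) of the 9 adhesion genes, with 1 point per library of the 3 MBC and 4 PC libraries, a triangle for MBC replicate 3, a line at the group mean and an error bar of 1 SD. Pecam1 lay between 13.3 and 182.9 in MBC libraries and between 3.29 and 8.37 in PC libraries, while most other genes overlapped between the groups.

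In PCs the 9 genes fell into tiers of level, on a scale that accounts for transcript length. Cd44 was highest at 104.8 ± 13.7 scaled TPM (SD, n = 4), and each of its 4 values lay above every value of the next gene. Itga4, Itgal and Itgb2 followed at 74.2 ± 11.7, 67.5 ± 13.2 and 60.7 ± 10.8 (SD, n = 4), with overlapping ranges. Itgb1 stood at 19.5 ± 6.84 (SD, n = 4), below all of these. Icam1, Itga6 and Pecam1, at 6.58 ± 2.92, 6.45 ± 3.46 and 6.01 ± 2.41 (SD, n = 4), could not be ordered beyond their spread. Itgb7 had the lowest mean, 3.26 ± 1.28 (SD, n = 4), but its range crossed those of Itga6, Icam1 and Pecam1. In MBC libraries the SD was so wide that few neighbours could be ordered at all, since Itga4, Cd44, Itgb2 and Pecam1 each spanned several-fold between libraries.

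Itga4 (ENSMUSG00000027009, chr2:79255426-79333123, GRCm38, plus strand) encodes the alpha4 chain shared by VLA-4 and the MAdCAM-1 receptor. The MBC libraries, in replicate order, gave 101.8, 51.2 and 8.08 scaled TPM, and the PC libraries 69.7, 87.5, 79.1 and 60.4 (the same order is kept for each gene below). The PC values were close together and lay inside the MBC range. The fold change was 1.03 ± 0.70 (SE; 95% interval -0.54 to 2.60; limma adjusted p = 0.407), and it was 0.02 (adjusted p = 0.967) without MBC replicate 3. Among all genes tested in a library, Itga4 ranked at percentile 90.3 to 93.1 in PCs and 53.2 to 95.4 in MBCs.

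Itgb1 (ENSMUSG00000025809, chr8:128685654-128733200, plus strand) encodes the beta1 chain, the partner of alpha4 in VLA-4 and of alpha6. It was measured at 14.0, 31.7 and 22.2 scaled TPM in MBCs and at 12.2, 19.99, 17.3 and 28.6 in PCs. Both groups covered nearly the same range. Between the groups the change was -0.19 ± 0.44 (SE; 95% interval -1.18 to 0.80; limma adjusted p = 0.83).

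Itgb7 (ENSMUSG00000001281, chr15:102215995-102231944, minus strand) encodes the beta7 chain, the gut-homing partner of alpha4. The MBC libraries gave 24.2, 24.5 and 1.42 scaled TPM. The PC libraries gave 3.11, 3.27, 1.76 and 4.88. MBC replicates 1 and 2 therefore lay well above all PC libraries, and replicate 3 lay below them. Over all libraries the fold change was -1.50 ± 0.84 (SE; 95% interval -3.37 to 0.38; limma adjusted p = 0.310) and Itgb7 was not called. It was called lower in PCs without MBC replicate 3 (-2.63, adjusted p = 0.0093) and within the more frequent of the 2 prefixes of the library titles, which holds MBC replicates 1 and 2 and PC replicates 1 to 3 (-2.80, adjusted p = 0.0276). The PC values rested on an estimated 13.4 to 57.8 reads per kilobase of transcript.

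The alpha4 partners were also compared with each other within each library, which does not depend on the scaling. The ratio of Itgb7 to Itgb1 ran 1.73, 0.775 and 0.0639 over the MBC libraries, against 0.255, 0.164, 0.102 and 0.171 over the PC libraries. Itgb1 exceeded Itgb7 in every PC library and in MBC replicates 2 and 3, and Itgb7 was the higher of the pair in MBC replicate 1. The mean log2 ratio was lower in PCs by -1.43 (exact permutation test, two-sided, p = 0.286, 0.617 adjusted over 6 ratios). That difference was -0.44 without MBC replicate 1, -1.02 without replicate 2 and -2.82 without replicate 3. The smallest one-sided p these group sizes allow is 0.0286, and the two-sided test doubles the one-sided p. No ratio could therefore fall under 0.05, so these tests could not detect a difference. Itga4 over the sum of both beta partners was 4.55, 3.76, 4.15 and 1.81 in PCs and 2.66, 0.911 and 0.342 in MBCs. The alpha chain transcript thus exceeded its summed partners in all 4 PC libraries and in 1 MBC library. The log2 difference was 1.84 (exact permutation p = 0.114, adjusted 0.617), and 1.11 without MBC replicate 3.

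Itgal (ENSMUSG00000030830, chr7:127296260-127335138, plus strand) encodes the alphaL chain of LFA-1, the main leukocyte receptor for ICAM-1. Its level was 56.8, 66.4 and 24.5 scaled TPM in MBCs and 79.8, 70.2, 71.0 and 48.8 in PCs. The highest 3 values were from PCs, but PC replicate 4 lay below MBC replicates 1 and 2. The fold change was 0.54 ± 0.41 (SE; 95% interval -0.38 to 1.46; limma adjusted p = 0.461) and 0.11 without MBC replicate 3.

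Itgb2 (ENSMUSG00000000290, chr10:77530252-77565708, plus strand) encodes the beta2 chain shared by LFA-1 and the myeloid integrins. It was 24.8, 209.8 and 34.9 scaled TPM in MBCs and 45.6, 70.6, 65.5 and 61.2 in PCs. MBC replicate 2 exceeded every other library, and the remaining pair of MBC libraries lay below every PC library. Its group difference was 0.07 ± 0.65 on the log2 scale (SE; 95% interval -1.38 to 1.52; limma adjusted p = 0.961), and it was 1.00 (adjusted p = 0.135) without MBC replicate 2. MBC replicate 2 also had the highest summed level of 8 myeloid markers, 29.0 scaled TPM, against 2.32 and 8.83 in the other MBC libraries and 2.16 to 7.68 in PCs. Lyz2 alone gave 21.0 of that sum. Csf1r and Cd14 were higher in MBC replicate 1 than in replicate 2 (5.48 and 1.16 against 3.97 and 0). Itgam and Adgre1 were higher in replicate 2 (3.45 and 0.573 against 2.11 and 0). The part of these markers in the Itgb2 value was not tested. The ratio of Itgal to Itgb2 differed by 0.47 on the log2 scale between the groups (exact permutation p = 0.514, adjusted 0.617), but by 1.23 without MBC replicate 1 and by -0.19 without MBC replicate 2.

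Icam1 (ENSMUSG00000037405, chr9:21015985-21028817, plus strand), the ligand of LFA-1 and a target of NF-kB signalling, had a low level for the 9 genes and a middle rank among all genes tested (percentile 41.8 to 65.7 in MBCs and 33.5 to 57.9 in PCs). It was 4.93, 6.12 and 12.7 scaled TPM in MBCs and 4.29, 5.77, 10.9 and 5.41 in PCs. The highest value was in MBC replicate 3, and the groups overlapped throughout. This gave a fold change of -0.21 ± 0.53 (SE; 95% interval -1.39 to 0.98; limma adjusted p = 0.845).

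Itga6 (ENSMUSG00000027111, chr2:71745616-71858416, plus strand) encodes the laminin-binding alpha6 chain. Its values were 7.94, 3.84 and 7.65 scaled TPM in MBCs and 1.93, 8.72, 5.59 and 9.55 in PCs. PCs held both the lowest and the highest value. On the log2 scale the groups differed by -0.11 ± 0.59 (SE; 95% interval -1.44 to 1.22; limma adjusted p = 0.933), and the log2 ratio of Itga6 to its partner Itgb1 differed by 0.03 (exact permutation p = 0.971, adjusted 0.971). The other 2 ratios, Itgal to Itga4 and Itga4 to Itga6, differed by -0.52 and 1.25 on the log2 scale (exact permutation p = 0.457 and 0.457, each 0.617 adjusted over 6). Both values rested on MBC replicate 3, without which they were 0.09 and 0.04. For Itga6 to Itgb1 the difference was 0.52, -0.59 and 0.16 without MBC replicates 1, 2 and 3 in turn.

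**Figure D2:**
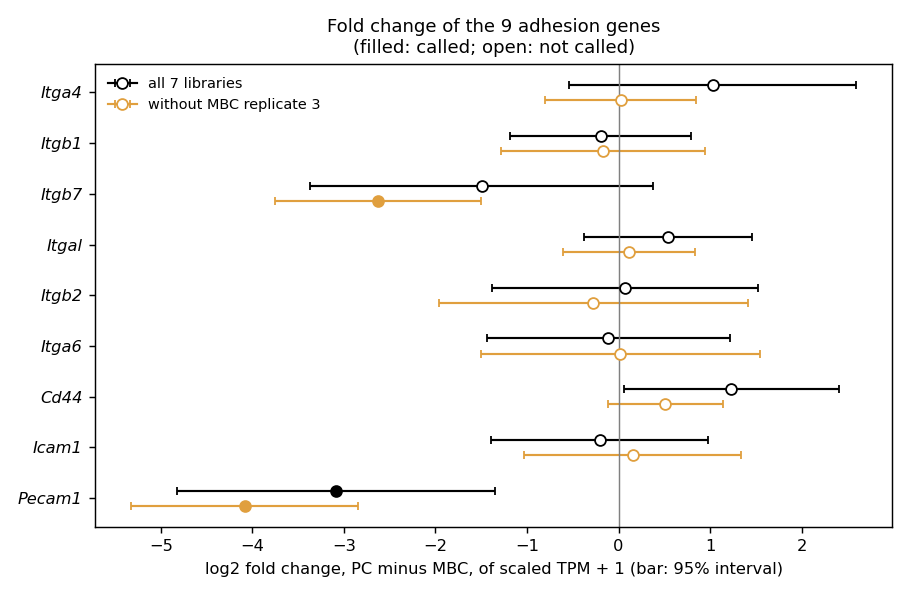
Log2 fold change (PC minus MBC, scaled TPM + 1) of the 9 adhesion genes with 95% intervals, for all 7 libraries (black) and without MBC replicate 3 (orange), filled where called. With all libraries only the intervals of Pecam1 (-4.82 to -1.35) and Cd44 (0.06 to 2.40) lie clear of 0, and Itgb7 moves from -1.50 to -2.63 when that library is left out.

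Cd44 (ENSMUSG00000005087, chr2:102811141-102901665, minus strand), the hyaluronan receptor and a marker of activated lymphocytes, was the highest of the 9 genes in PCs. It reached 122.4, 103.1, 104.4 and 89.1 scaled TPM in PCs, against 73.6, 71.9 and 15.5 in MBCs. All PC values lay above all MBC values, and MBC replicate 3 was far below the other MBC libraries. The fold change was 1.23 ± 0.52 (SE; 95% interval 0.06 to 2.40; unadjusted p = 0.0414), with a limma adjusted p of 0.186, so the gene was not called. Without MBC replicate 3 the fold change was 0.51 (adjusted p = 0.217), and on the TPM as deposited it was -0.07, where the median of all genes was -0.91 in place of 0.14. By rank, Cd44 stood at percentile 93.1 to 95.0 of the tested genes in PCs, at 90.6 and 93.4 in MBC replicates 2 and 1, and at 70.6 in MBC replicate 3.

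Pecam1 (ENSMUSG00000020717, chr11:106654217-106750628, minus strand), which encodes the inhibitory adhesion receptor PECAM-1 (CD31), fell in PCs. The MBC libraries held 68.8, 182.9 and 13.3 scaled TPM, and the PC libraries 3.29, 8.37, 4.72 and 7.67. Every MBC value exceeded every PC value, and the means of 88.3 ± 86.5 (SD, n = 3) and 6.01 ± 2.41 (SD, n = 4) differed 14.7-fold. The fold change was -3.09 ± 0.77 (SE; 95% interval -4.82 to -1.35; limma adjusted p = 0.0381). It was -4.08 without MBC replicate 3 (adjusted p = 0.0024) and -4.21 within the more frequent title prefix (adjusted p = 0.0094). The other prefix held 1 library of each group and gave no test. The call did not survive leaving out any 1 of the other 6 libraries, where the fold change ran from -3.25 to -2.24 and the adjusted p from 0.0747 to 0.111. In percentile of all genes tested, Pecam1 ranked at 66.7 to 96.8 in MBC libraries and at 27.9 to 51.8 in PC libraries.

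PECAM-1 is abundant on endothelium and platelets, so markers of those cells were read beside Pecam1. Of 8 endothelial markers, 4 were at 0 in all libraries, and their summed level was 0 in MBC replicates 1 and 2, 0.273 in MBC replicate 3 and 0.544 to 5.40 in PCs. The endothelial markers were thus at or near 0 in the libraries where Pecam1 was highest. The 7 platelet markers summed to 4.86 to 45.7 in MBCs and 11.04 to 15.3 in PCs. Itgb3, whose beta3 chain also pairs with alphaV, made up most of this sum in every library except MBC replicate 1. It was 45.7 in MBC replicate 2, 6.40 in replicate 3 and 10.7 to 14.8 in PCs. In MBC replicate 1 most of the sum was the platelet marker Gp9 (4.58). The part of the endothelial and platelet markers in the Pecam1 difference was not tested. Summed T cell markers (8 genes) ran from 0.519 to 24.3 in MBCs, mostly Lck (14.3, 0 and 23.0), and from 13.0 to 25.6 in PCs. Of the 8 T cell markers, 2 passed the filter and were tested. Cd3e was called higher in PCs, at 0, 0 and 0.66 against 11.8, 14.2, 3.86 and 12.5 (limma adjusted p = 0.0081). Lck went the other way, with a mean of 12.4 in MBCs and 3.44 in PCs, and was not called (limma adjusted p = 0.669). The untested markers, Cd3d, Cd3g, Cd4, Cd8a, Cd8b1 and Cd5, went with Cd3e. Their means were 0.125 to 2.32 in PCs and 0 to 0.289 in MBCs. The part of Cd3e in the genes that were higher in PCs was not tested.

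Within the integrin family, the chains listed here made up most of the transcripts in PCs, and their composition was much more even among PC than among MBC libraries. Itga4 took 40.5%, 47.7%, 46.6% and 44.7% of the summed TPM of 18 alpha chain genes over the PC libraries, but 58.1%, 34.4% and 15.2% over the MBC libraries. Itgal took 40.6 ± 4.48% in PCs (SD, n = 4) and 41.0 ± 7.45% in MBCs (SD, n = 3). The share of Itga6 was 1.123% to 7.07% in PCs, and it was 4.53% and 2.58% in MBC replicates 1 and 2 and 14.3% in replicate 3. Itgav, which encodes the alphaV chain of vitronectin receptors, held most of the remainder, 7.97% on average in PCs and 13.8% in MBCs.

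Among 9 beta chain genes, Itgb2 was the major transcript in every library, from 38.7% to 67.3%. Itgb1 took 19.8 ± 4.54% in PCs (SD, n = 4) and 22.0 ± 12.0% in MBCs (SD, n = 3). Itgb7 took 37.8% in MBC replicate 1, 7.87% in replicate 2 and 2.18% in replicate 3, against 1.76% to 4.53% in PCs. Itgb3, a partner of alphaV, exceeded Itgb7 in every PC library, with 10.4% to 14.8%, and took 0.445%, 14.7% and 9.83% in MBCs. The share of Itgb7 was therefore close to that of Itgb2 in a single library, and no more than a minor one elsewhere. Between the groups the 6 shares gave p from 0.229 to 1.00 (exact permutation tests, two-sided), 0.857 or more after adjustment over 6. The smallest possible one-sided p is 0.0286, which the two-sided test doubles. No share could therefore fall under 0.05, so these tests could not detect a difference. The difference in mean share, PC minus MBC, was 8.97 percentage points for Itga4 and -12.5 for Itgb7. Without MBC replicate 3 these were -1.40 and -19.4, and the difference for Itgb7 was -1.62 without MBC replicate 1. Without MBC replicate 3 the direction also turned for Itga6 (from -3.09 to 0.50), Itgb1 (from -2.24 to 3.80) and Itgal (from -0.38 to 2.07).

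**Figure D3:**
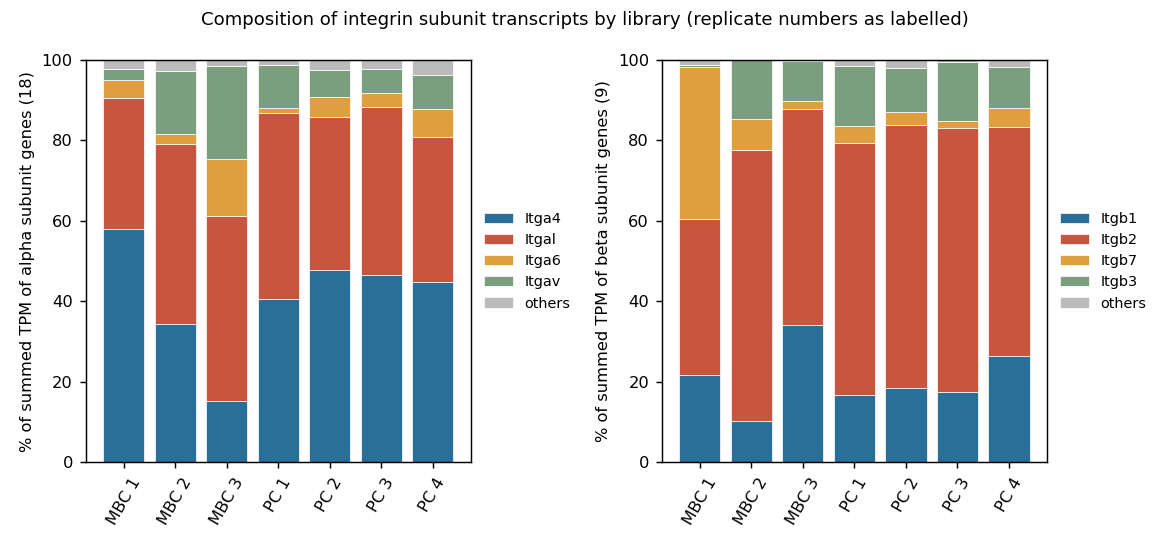
Percent of the summed TPM of 18 alpha chain genes (left) and 9 beta chain genes (right) taken by each named chain, with 1 stacked bar per library. The PC bars resemble one another (Itga4 40.5% to 47.7%), while MBC bars differ, with Itga4 from 15.2% to 58.1% and Itgb7 from 2.18% to 37.8%.

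The wider adhesion machinery was described through 8 further lists with 111 genes, of which 57 passed the filter on low values and were tested. Of the 57, 6 (10.5%) were called higher in PCs and 3 (5.26%) lower, beside 6.41% and 2.14% of all genes tested. The 6 include Sdc1, the gene of CD138, by which the PCs were sorted. Without MBC replicate 3 the counts were 9 and 8, beside 13.8% and 7.94% of all genes tested. Of the other integrin chains, 2 alpha and 1 beta were tested and limma called 0, with 0 at an unadjusted p under 0.05. Of 20 tested genes of integrin activation and linkage, 1 was called higher, and at an unadjusted p under 0.05 there were 3 higher and 3 lower, beside 15.3% and 8.93% of all genes. That gene was Rap1a, a small GTPase that switches integrins to high affinity, whose PC level of 312.1 ± 46.3 scaled TPM (SD, n = 4) compared with 113.0 ± 51.4 among MBCs (SD, n = 3). Its fold change was 1.58 (SE 0.40, limma adjusted p = 0.0389), and on the TPM as deposited it was 0.26 (adjusted p = 0.697). Of 9 tested ligands and immunoglobulin-family receptors, limma called 0, with 1 lower at an unadjusted p under 0.05.

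The selectin system (8 tested, 2 called higher and 1 lower) and the tetraspanins held most of the called genes. Selplg, which encodes the selectin ligand PSGL-1, was 2.99, 24.4 and 1.87 scaled TPM in MBCs and 71.2, 66.8, 80.0 and 61.8 in PCs, and its fold change was 3.41 (SE 0.68, limma adjusted p = 0.0134). Fut4, a fucosyltransferase that can build selectin ligands, was at or near 0 in MBCs (0, 0 and 0.17) and between 3.33 and 7.11 in PCs (limma adjusted p = 0.0124). Gcnt1, which starts the core 2 branch of O-glycans, fell from 12.1 ± 5.48 (SD, n = 3) to 1.85 ± 0.36 (SD, n = 4), a change of -2.09 (limma adjusted p = 0.038).

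Tetraspanins are membrane organizers that associate with integrins, and of 7 tested, 2 were called higher and 1 lower. Cd9 was 0, 0.29 and 1.61 scaled TPM in MBCs and 8.80 to 14.2 in PCs (3.04, SE 0.53, limma adjusted p = 0.0069). Cd81, a part of the B cell coreceptor, reached 376.6 ± 28.2 in PCs against 122.7 ± 42.0 among MBCs (SD), a change of 1.67 that passed the test (limma adjusted p = 0.0114) but was 0.35 on the TPM as deposited (adjusted p = 0.499). Cd37, a leukocyte tetraspanin, was lower in PCs, at 207.7 ± 32.2 against 621.6 ± 186.5 in MBCs (SD, change -1.54, limma adjusted p = 0.0166). Msn, whose product moesin links CD44 and other receptors to actin, was also lower in PCs. Its level was 115.3 ± 9.05 there against 400.4 ± 148.8 in MBCs (SD, change -1.71, limma adjusted p = 0.0143). Msn was the 1 gene called among 6 tested partners of CD44 and hyaluronan. Sdc1, of the syndecans and cadherins (4 tested, 1 called), encodes CD138, by which the PCs were sorted, and was 0, 0 and 0.06 in MBCs and 49.6 to 78.1 in PCs. The median fold change of the tested genes was 1.57 on the log2 scale for the selectin list, 0.82 for syndecans and cadherins, 0.63 for ligands and immunoglobulin-family receptors, 0.15 for the CD44 list, -0.13 for tetraspanins and -0.45 for activation and linkage, beside 0.14 for all genes. Without MBC replicate 3 these medians were 0.99, 0.11, 0.25, 0.40, -0.10 and -0.54, in the same order, beside 0.19. Of 16 alternative settings, the call held under 4 for Rap1a, 6 for Gcnt1, 12 each for Cd81 and Cd37, 13 each for Selplg, Fut4 and Msn, 14 for Cd9 and 16 for Sdc1. In the fits with a block for replicate number or title code, which the labels do not show to pair the libraries, only Selplg and Sdc1 of these 9 genes were called.

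**Figure D4:**
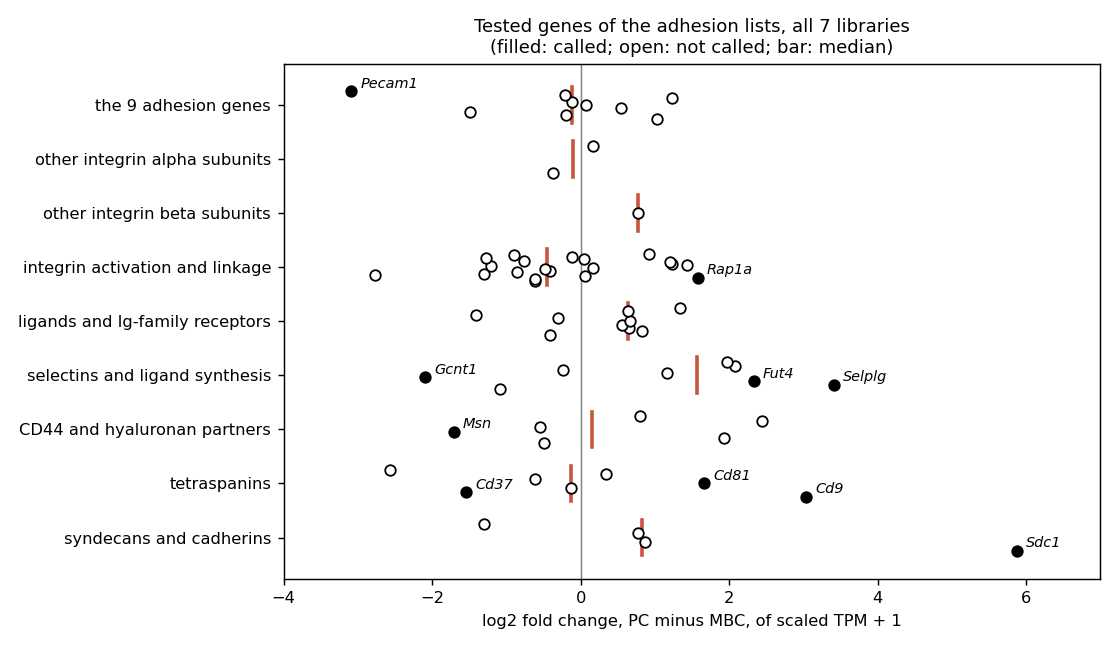
Log2 fold change (PC minus MBC, scaled TPM + 1, all 7 libraries) of each tested gene of the 9 adhesion genes and of 8 further adhesion lists, with filled points for called genes and a bar at each list's median. Pecam1 is the 1 called gene in the top row, at -3.09, and called genes of the further lists lie on both sides of 0.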

How the data were processed

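RNA was sequenced on an Illumina HiSeq after Nugen cDNA preparation from 3 MBC and 4 PC libraries. The authors deposited TPM per Ensembl gene, with 2 decimals, and the submitters' processing notes name RSEM 1.3.0, STAR 2.5.2a, DESeq2 1.18.1 and GRCm38, without their roles. The annotation release is not given in the sources used here. Deposited TPM depends on everything else in a library, so it was divided by a median-ratio factor (0.636 to 2.05). Symbols and coordinates came from GENCODE on GRCm38 (48349 of 48795 genes matched). Genes at 1 TPM or more in at least 3 libraries were kept, and log2(scaled TPM + 1) was fitted with limma 3.58.1 in R 4.3.3 (trend on mean, 2 groups, no block). On simulated data this step called 81 of 100 genes given a log2 change of 4 and 30 of 100 given 2. It called 2 of 11373 genes given no change. A gene that was not called may therefore still differ. Over all genes tested, MBC libraries correlated at 0.675 to 0.687 with one another, and PC libraries at 0.85 to 0.957. Whether the count of 2 holds where 1 group varies more than the other was not tested. Ratios and shares were compared by exact permutation with scipy 1.17.1.

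Libraries were grouped by their labels. Their titles carry 4 codes, 3 of them in both groups, under 2 prefixes, and what these mark is not stated. Read depth, estimated from the steps between low TPM values, was 6.21 to 16.5 reads per kilobase at 1 TPM. A count of 3 reads on 1 kilobase then equals 0.182 to 0.483 TPM, for counting error only. The 9 genes and the lists were chosen with earlier results of these data known. Named genes were all 9, up to 3 called genes in each direction per further list, sort markers, and the 2 genes most correlated with each of the 9. One result of the further lists is not reported here. Alternatives were another pseudocount, no filter, unscaled TPM, immunoglobulin genes removed, quantile normalization, blocks by replicate number, title code or prefix, and each library left out.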

Additional observations from a re-analysis of the deposited data

Results flagged for a closer look

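By Dixon's criterion, 0 of 31 sets of PC values held a library far from the others, where about 1 in 20, or 1.55, would be expected. These sets did not cover every tested gene of the further adhesion lists. Among those lists, PC replicate 1 lay far above the other PC libraries for Sharpin (53.5 against 16.5, 17.0 and 17.1 scaled TPM). The same was seen for Icam2 (70.2 against 20.4, 20.5 and 24.6). The MBC group, with 3 libraries, was not examined in this way.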

How the results depend on the processing

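With all libraries, 742 genes were called higher and 248 lower in PCs. These counts were 437 and 123 with every gene above 0 kept, 472 and 3018 on the TPM as deposited, and 393 and 431 with immunoglobulin genes removed. Quantile normalization called 490 lower, and the more frequent title prefix alone called 417 lower. The median fold change of all genes was 0.14, against -0.91 as deposited, -0.11 without immunoglobulin genes and -0.15 after quantile normalization. Leaving out 1 library gave 451 to 1592 higher and 91 to 919 lower, and the cause of these differences was not tested.

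Of the 9 adhesion genes, 1 was called lower over all libraries and 0 higher. The lower count was 0 with every gene above 0 kept (Pecam1 adjusted p = 0.128), 3 on the TPM as deposited (Itgb1, Itgb7 and Pecam1, with -1.45 for Itgb1 beside the all-gene median of -0.91), 2 within the more frequent prefix, and 0 to 2 when 1 library was left out. On the TPM as deposited Itga4, Itgal, Itgb2 and Cd44 were at -0.26, -0.76, -1.23 and -0.07. These 4 genes, Icam1 and Itga6 were uncalled under all 16 alternatives.

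The replicate block called 390 higher, 60 lower and 0 of the 9 genes (Pecam1 -3.21, adjusted p = 0.0508), and the title code block 434, 83 and 0 (Pecam1 -3.25, adjusted p = 0.067). Deviations of same-numbered libraries correlated at 0.109, -0.0398 and -0.0832, and those of the same code at 0.109, -0.00436 and 0.222. Pairs that share no code ran from -0.176 to 0.152, so 0.222 was the highest value of any pair. The main fit used no block because the labels state no pairing, and whether the code marks one was not tested. Among the further adhesion genes, the replicate block and the title code block ended the calls of Cd9 (adjusted p = 0.0796 and 0.0558), Cd81 (0.0819 and 0.0512), Cd37 (0.0807 and 0.0906), Fut4 (0.122 and 0.0728), Msn (0.0955 and 0.061), Gcnt1 (0.196 and 0.154) and Rap1a (0.144 and 0.0789).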

Other observations

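The genes whose pattern over the 7 libraries was most like that of each adhesion gene were read as a description, on log2(scaled TPM + 1). For Itgb7 these were Gpr183, which encodes an oxysterol receptor that guides B cell positioning (Pearson r = 0.989), and Cd38, a gene of the MBC sort (r = 0.986). For Itga4 they were Adgre5, which encodes the adhesion receptor CD97 (r = 0.985), and St8sia6, a sialyltransferase (r = 0.974). For Pecam1 they were Snx16 (r = 0.996) and Bag4 (r = 0.994), and for Cd44 Tmem154 (r = 0.996) and Gpr55 (r = 0.992). Itgal was closest to Elmod2 (r = 0.976) and Itgb2 to Nf2 (r = 0.996). The 7 points fall into 2 groups and share their libraries and scaling.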
